A study of Mus musculus with 14 samples.

Results

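Epithelium and stroma of the same 5 mice were compared by bulk RNA-Seq of the esophagus. The samples were the 10 of the 14 libraries of the series that come from mice with both layers: epithelium and stroma of 3 aged mice (O1, O2, O3) and 2 young mice (Y1, Y3), paired by the mouse code in the sample labels. Mice OF5, OM8, YF5 and YM4 have epithelium alone and were left out. All mice were untreated C57BL/6 animals, aged mice being at least 18 months old by the series' design text (19 in the methods) and young mice at most 4 months, and the labels give no sex for the 10 samples. For epithelium-enriched mucosa the muscle layer had been taken off with forceps before the esophagus was slit open, and the sources used here do not describe how the stroma of the labels was taken. Total counts were 16477424 to 21867101 per epithelial and 13257833 to 15644580 per stromal library, of which 7971284 to 11067320 and 6665526 to 8109419 fell on protein-coding genes. Values below are normalized counts, that is CPM on the TMM-adjusted library size, and lists of 5 values are in the order O1, O2, O3, Y1 and Y3. On this scale 3 counts correspond to 0.135 to 0.267. DEGs had an adjusted p-value (edgeR's quasi-likelihood test with mouse as a block, Benjamini-Hochberg) under 0.05, and log2 fold changes are epithelium against stroma, negative where stroma was higher.

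The inner lining of the mouse esophagus is a stratified squamous epithelium. Basal cells that rest on a basement membrane divide, leave it, and flatten into cornified cells sealed by desmosomes, crosslinked proteins and lipid. Beneath it lie a lamina propria of fibroblasts, vessels, nerves and immune cells, a thin sheet of smooth muscle and an outer muscle coat. In the mouse, unlike in humans, that coat is striated along nearly the whole length, and it holds a myenteric plexus of neurons.

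The labels were checked on the keratins of squamous epithelium and the sarcomere genes of striated muscle. All 10 keratins were DEGs higher in epithelium, and their summed normalized counts were 112 to 1091 times those in stroma of the same mouse. All 20 sarcomere genes were DEGs higher in stroma, and their sum in epithelium was 0.819% to 3.3% of that in stroma. The keratin ratio was lowest in O2 and O3 and the sarcomere share of epithelium highest in O3 (3.30%) and Y3 (1.83%). The number of genes with a count ran from 25000 in O3 to 39907 in Y3 in epithelium and, for the same mice, from 20115 to 41308 in stroma. The part of such carry-over in the other results was not tested. Neither list reports on other cell types. Fibroblast genes summed in epithelium to 42.6% to 94% of stroma, and smooth muscle genes to 24.2% to 108%.

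The layers differed in more genes than not. Of 16713 genes tested, 8590 were DEGs (51.4%), of which 4587 were higher in epithelium (27.4%) and 4003 in stroma (24%). Counts given for gene lists below are to be read beside these shares. Without a filter on low counts 8822 of 49457 genes were DEGs, 6001 of them higher in epithelium. For 7956 genes (47.6%) no epithelial value overlapped a stromal one: 4425 lay higher in epithelium (26.5%) and 3531 in stroma (21.1%). The median log2 fold change of all genes tested was 0.14, and 770 DEGs in epithelium and 593 in stroma exceeded 4 on the log2 scale. No gene was called in opposite directions here and under any alternative processing tried. Of 258 DEGs whose difference is described below, 13 lost the call and 56 moved by over 1.5-fold when 1 mouse was left out, and the furthest move in each direction is given beside the gene. The samples are paired by animal, and without mouse as a block the same samples gave 9400 DEGs. In bulk tissue, fewer cells of a type and less RNA per cell cannot be told apart.

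The composition of the libraries differed as well. Genes of the mitochondrial genome took 3.73% ± 0.87 of the counts in epithelium and 21.9% ± 5.28 in stroma (SD, n = 5), and were higher in stroma in 5 of 5 mice (exact sign-flip permutation test, two-sided, p = 0.0625, the smallest that 5 mice allow). The ribosomal RNA locus, summed over CT010467.1, Gm42418 and AY036118 where present, took 15.2% ± 5.29 and 1.66% ± 0.16 in the same order (exact permutation p = 0.0625). The small repeated loci Gm23935 and Gm24270 took 16.6% to 23.8% in epithelium and 15.2% to 21.9% in stroma. The DEG count was 8550 when mitochondrial genes, the ribosomal RNA locus and these small repeated loci were left out before normalization.

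**Figure D1:**
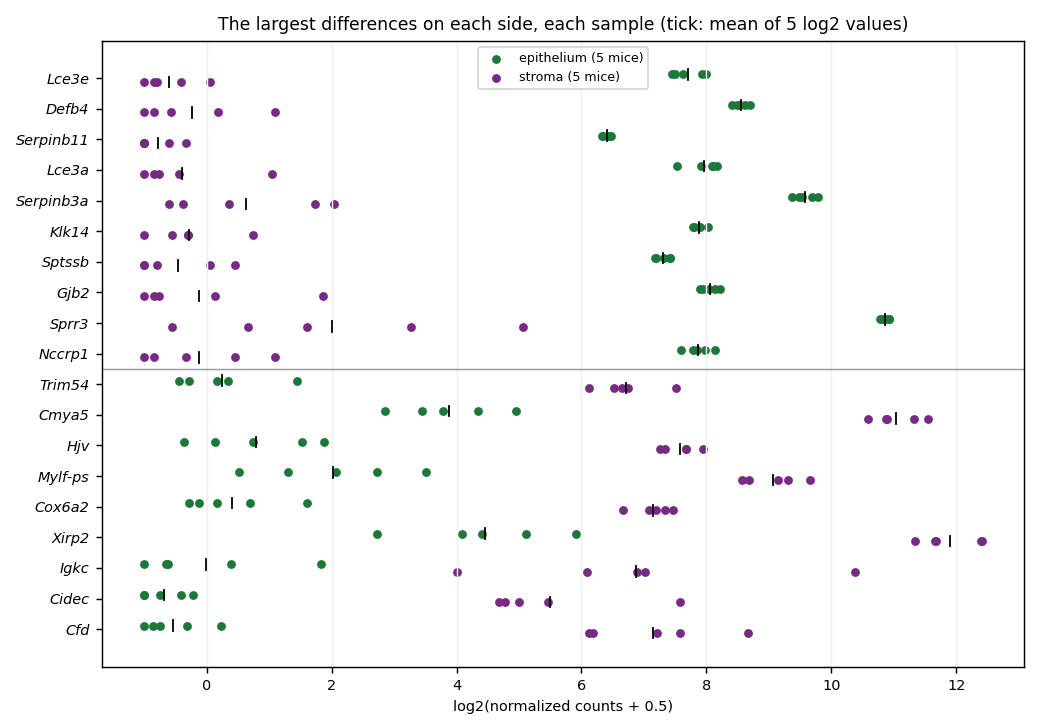
The largest differences on each side, 10 genes in epithelium and 9 in stroma, as log2(normalized counts + 0.5) on the x axis, for each of 5 epithelial (green) and 5 stromal (purple) samples, with a tick at the mean of the log2 values. Only genes without overlap between green and purple points were eligible. The stromal values of Igkc spread from 15.6 to 1324 normalized counts.

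The largest differences on the epithelial side were genes of cornification, secreted defence and junctions. Keratin and sarcomere genes were left aside, as were DEGs whose mean log2 CPM was under 5 or whose layers overlapped. Lce3e, a late cornified envelope gene at chr3:92967061-92968281 (GRCm38), had 174, 197, 253, 244 and 181 normalized counts in epithelium and 0, 0.25, 0.0583, 0.0792 and 0.54 in stroma (log2 fold change 10.04, standard error 0.53, adjusted p = 4.37e-06). The stromal values of Lce3e rest on 0 to 9 counts a library, and those of its neighbour Lce3a (9.64) are as sparse. These are paralogs, so reads may have been divided between them. Defb4, a beta-defensin that kills microbes, had 341, 371, 361, 392 and 416 normalized counts in epithelium and 0, 1.63, 0.175, 0.633 and 0.06 in stroma (log2 fold change 9.85, standard error 0.72, adjusted p = 1.47e-05). Every epithelial value of Defb4 exceeded 300 and no stromal value reached 2. Next came the serine protease inhibitors Serpinb11 (9.74) and Serpinb3a (9.36), the kallikrein protease Klk14 (9.29), Sptssb (9.11), which activates the first enzyme of sphingolipid synthesis, the gap junction gene Gjb2 (9.08), the cornified envelope precursor Sprr3 (9.04) and Nccrp1 (8.94). Sprr3 had 1755, 1937, 1859, 1948 and 1794 normalized counts in epithelium and 0.178, 32.8, 9.16, 2.53 and 1.08 in stroma. The highest stromal values of Sprr3 were those of O2 and O3. The omission of 1 mouse moved Defb4 to 10.88 without O2, Gjb2 to 10.49 without O2, Klk14 to 10.08 without O3, Lce3a to 11.24 without O2, Lce3e to 10.88 without Y3, Nccrp1 to 9.78 without O2, Serpinb11 to 10.87 without Y3, Sprr3 to 8.38 without O1 and to 9.90 without O2 and Sptssb to 9.95 without O2.

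On the stromal side the largest differences joined fat, plasma cell and muscle genes. Cfd, which encodes the fat-derived complement protease adipsin, had 0.673, 0.0933, 0, 0.0538 and 0.306 normalized counts in epithelium and 72, 69.3, 190.1, 147 and 404 in stroma (log2 fold change -9.36, standard error 0.71, adjusted p = 1.79e-05). Cidec, a coat protein of fat droplets, had 0.359, 0.0933, 0, 0 and 0.255 normalized counts in epithelium and 26.9, 25, 43.8, 31.7 and 191 in stroma (log2 fold change -8.45, standard error 0.60, adjusted p = 1.30e-05). Both were at or under 1 normalized count in every epithelium. Igkc, the constant region of the kappa light chain, had 0.808, 0.14, 3.04, 0 and 0.153 normalized counts in epithelium and 15.6, 67.3, 1324, 118 and 129 in stroma (log2 fold change -8.21, standard error 0.93, adjusted p = 0.000144). Its stromal values were lowest in O1 and highest in O3, and without O3 the log2 fold change was -7.82. Another 6 were genes of striated muscle or its pseudogene: the muscle structure proteins Xirp2 (-7.51) and Cmya5 (-7.24), the cytochrome c oxidase subunit Cox6a2 (-7.37), the iron regulator Hjv (-7.24), the ubiquitin ligase Trim54 (-7.23) and Mylf-ps (-7.25). Repeats with 4 mice moved Cfd to -10.65 without O1, Cidec to -9.52 without O1, Cox6a2 to -7.99 without O3, Igkc to -9.29 without O1 and Trim54 to -7.82 without O3.

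Short motifs were counted in the promoters of genes at both extremes. Promoter sequences from RefSeq (GRCm38.p6, 250 bases before to 50 after the start, 1 for each gene) were found for 11289 of the 16713 genes tested, and 8 motifs were searched on both strands. The letters TGANTCA, bound by AP-1 factors, stood in 14.8% of 499 promoters of DEGs over 4 in epithelium, 8.19% of 415 of DEGs under -4, 3.84% of 5464 of genes between -1 and 1, and 7.91% of all 27025 promoters. The letters CTA and TAG with any 4 bases between them, the core bound by MEF2 factors of muscle, stood in 2.81%, 8.43%, 2.67% and 3.69% in that order. The E-box CAGCTG, bound by MyoD-type factors among others, stood in 17%, 28.2%, 13.8% and 16.2%, and the TATA box TATAAA in 18.4%, 16.9%, 6.15% and 14.1%. A MEF2 site in 1 fixed spelling stood in 1 promoter of the epithelial and 6 of the stromal group. A CArG box of serum response factor, also in 1 fixed spelling, stood in 1 and 0. Other spellings of the CArG box were not searched, so these counts do not show whether such boxes were absent. The GRHL letters AACCGGTT stood in 3 and 0, and the CACCC-box letters GGGTGTGG in 7.62% and 3.86%. The shares were not tested and describe letters, not binding.

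For a view of such promoters, the 150 bases before the start are given 5′ to 3′ for 2 genes of each side, chosen after the matches were seen, with the matched letters in capitals. Tmprss11d, a membrane-bound serine protease known from airways (log2 fold change 7.16), lies at chr5:86373388-86373537, minus strand, and TGATTCA starts 39 bases and CAGCTG 12 bases before the start. Sprr3 lies at chr3:92458721-92458870, minus strand, with TATAAA 33 bases and CAGCTG 23 bases before the start. Xirp2 lies at chr2:67445852-67446001, plus strand, with TGACTCA 107 bases and CTAAAAATAG 74 bases before it. Chrna1, the acetylcholine receptor subunit of muscle (-5.88), lies at chr2:73580339-73580488, minus strand, with CAGCTG 92 and 44 bases before it.
Tmprss11d: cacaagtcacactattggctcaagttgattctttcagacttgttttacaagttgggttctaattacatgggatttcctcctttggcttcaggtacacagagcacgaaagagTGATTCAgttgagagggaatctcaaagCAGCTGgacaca
Sprr3: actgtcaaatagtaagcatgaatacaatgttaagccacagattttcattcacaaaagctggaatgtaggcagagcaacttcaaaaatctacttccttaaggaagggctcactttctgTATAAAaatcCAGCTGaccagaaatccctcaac
Xirp2: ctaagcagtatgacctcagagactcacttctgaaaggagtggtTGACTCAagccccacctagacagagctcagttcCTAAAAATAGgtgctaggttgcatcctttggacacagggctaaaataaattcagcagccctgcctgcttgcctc
Chrna1: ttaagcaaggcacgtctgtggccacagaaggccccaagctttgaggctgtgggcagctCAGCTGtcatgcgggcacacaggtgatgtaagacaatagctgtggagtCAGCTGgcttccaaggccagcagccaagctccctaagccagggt

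The epithelium carried the genes that build and regulate the cornified barrier. Among genes of barrier lipids, 16 of the 17 genes tested were DEGs higher in epithelium, with a median log2 fold change of 5.70 (0.14 for all genes). They included the lipoxygenases Alox12b (7.93) and Aloxe3 (6.50), the lipid transporter Abca12 (7.21), the serine palmitoyltransferase subunit Sptlc3 (7.22) and the very long chain enzymes Elovl4 (7.11) and Cers3 (7.11). Abca12 had 447, 392, 419, 418 and 381 normalized counts in epithelium and 1.69, 5.13, 1.81, 3.8 and 2.46 in stroma, and the epithelial values of the 5 mice lay close together while the stromal ones were all at or under 5.13. Fa2h, which hydroxylates fatty acids, was not a DEG (log2 fold change 0.07, standard error 1.03, adjusted p = 0.961). Of proteases and their inhibitors, 27 of the 29 genes tested were DEGs higher in epithelium (median 6.25), led after the genes above by Serpinb12 (8.40) and Klk13 (8.08). Spink5 (7.36), the inhibitor that restrains kallikreins, had 1374, 1550, 1279, 1250 and 1314 normalized counts in epithelium and 0.8, 59.3, 15.4, 6.41 and 4.5 in stroma. The exceptions were Klk6 (1.66) and Serpina12 (1.56), neither of them a DEG. Single mice moved Alox12b to 7.33 without O3 and to 8.52 without O2, Elovl4 to 6.52 without Y3 and to 7.73 without O2 and Spink5 to 6.74 without O1 and to 8.05 without O2.

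Cell junction genes were higher in epithelium with few exceptions. Of desmosome, tight junction and gap junction genes, 26 of the 28 genes tested were DEGs higher in epithelium. The desmosomal cadherins Dsg1a (8.79), Dsg1b (8.45) and Dsc2 (8.03) and the connexin Gjb6 (8.34) led after Gjb2. Dsp, the plakin that ties desmosomes to keratin, had 5164, 3874, 3729, 4333 and 3387 normalized counts in epithelium and 23.8, 61.8, 20, 12.9 and 9.47 in stroma. Pkp2, a plakophilin that also serves muscle and endothelium, was a DEG higher in stroma (-3.80), and the tricellular junction gene Marveld2 (1.24) was not a DEG. Leaving out a mouse took Dsc2 to 8.65 without O2, Gjb6 to 9.43 without O2 and Pkp2 to -4.39 without Y3.

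Genes of the basement membrane zone were found on both sides. The list had 9 DEGs in epithelium and 14 in stroma of 27 tested, against 27.4% and 24% of all genes, so its epithelial count is near the share of all genes. The hemidesmosome collagen Col17a1 (6.11), its integrin partners Itgb4 (2.35) and Itga6 (1.71) and the laminin chains Lama3 (2.78) and Lamb3 (4.12) were higher in epithelium. Collagen IV (Col4a1 (-1.35) and Col4a2 (-1.52)), the nidogens Nid1 (-1.47) and Nid2 (-3.66), perlecan Hspg2 (-1.99) and the laminin chains Lama2 (-1.50), Lama4 (-1.57), Lamb2 (-1.01) and Lamc1 (-1.07) were higher in stroma. So were the cytolinkers Plec (-2.20) and Dst (-1.91), which are also made by muscle and nerve. Col17a1 had 342, 314, 266, 279.9 and 238 normalized counts in epithelium and 4.98, 7.38, 2.22, 5.86 and 2.34 in stroma, and Nid2 had 1.62, 0.98, 0.951, 1.19 and 1.83 normalized counts in epithelium and 11.5, 12.9, 20.2, 18.6 and 20.2 in stroma. Neither overlapped.

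Innate defence genes were mostly epithelial. Of the antimicrobial genes, 12 of the 16 genes tested were DEGs higher in epithelium, against 27.4% of all genes, and 6 more were too low to test. Besides Defb4 they included the defensin Defb1 (7.09), the peptidoglycan receptor Pglyrp3 (7.03) and the protease inhibitor Slpi (6.92). Another defensin, Defb14, had 4.26, 4.53, 3.61, 2.75 and 4.33 normalized counts in epithelium and was at 0 in every stromal library. Slpi had 1310, 1616, 1420, 1436 and 1369 normalized counts in epithelium and 6.75, 14.9, 14.3, 11.2 and 13.5 in stroma. Pigr, which carries antibodies across epithelia, was instead a DEG higher in stroma (-4.35), with 0.269, 0.233, 0, 0 and 1.12 normalized counts in epithelium and 3.46, 2.69, 7.24, 4.43 and 4.38 in stroma, without overlap. Of IL-1 family and pyroptosis genes, 12 of the 16 genes tested were DEGs higher in epithelium. The IL-36 cytokines, listed as Il1f6 (8.76), Il1f9 (8.03) and Il1f8 (7.39), led, followed by the pore-forming gasdermins Gsdmc (6.89) and Gsdma (6.68), whereas Gsdmd (-1.60) was a DEG higher in stroma. Gsdma had 355, 428, 363, 415 and 404 normalized counts in epithelium and 7.91, 5.63, 2.45, 4.35 and 1.44 in stroma. The omission of 1 mouse moved Defb1 to 6.39 without O3 and to 11.64 without O1, Gsdmc to 7.78 without O2, Il1f6 to 9.82 without O2, Il1f8 to 9.46 without O2, Il1f9 to 9.64 without O3, Pglyrp3 to 7.70 without O2 and Pigr to -5.29 without Y3 and to -3.70 without O3.

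Transcription factors of squamous epithelium were higher in epithelium, and those of mesenchyme and muscle were mixed. Of epithelial factors, 28 of the 30 genes tested were DEGs in epithelium (median 5.49). They were led, among those with more than 3 counts in stroma, by the ETS factor Ehf (7.87), the terminal differentiation factor Zfp750 (7.59) and the pharyngeal factor Pax9 (7.12). Ehf had 329, 366, 355, 353 and 378 normalized counts in epithelium and 0.8, 2.13, 1.98, 1.82 and 1.08 in stroma, with no overlap. Of mesenchymal and muscle factors, 20 of the 35 genes tested were DEGs in stroma and 3 in epithelium. The other 12 did not pass the test, with log2 fold changes from -0.87 to 0.98. Mef2c (-6.21), a driver of muscle differentiation, the homeobox gene Six4 (-5.46) and the pharyngeal mesoderm factors Isl1 (-5.95) and Tbx1 (-4.08) were among the largest. Tbx1 had 5.34, 5.51, 7.35, 7.16 and 4.84 normalized counts in epithelium and 110, 118, 84, 115 and 84.1 in stroma. Those higher in epithelium were Hoxc4 (2.44), Hoxc5 (3.31) and Osr2 (3.54). Hoxc5 had 23.7, 27.1, 24.5, 15.4 and 18 normalized counts in epithelium and 1.42, 3.44, 2.62, 3.56 and 0.84 in stroma, low in both layers and without overlap.

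Epithelium was also higher in genes of growth and of sterol and xenobiotic metabolism. Of cholesterol synthesis genes, 21 of the 23 genes tested were DEGs higher in epithelium (median 2.81), among them the squalene epoxidase Sqle (4.82), Fdps (4.29) and Cyp51 (3.96). Sqle had 93.9, 91.4, 86.5, 92.6 and 85.2 normalized counts in epithelium and 3.38, 3.81, 0.467, 6.09 and 4.5 in stroma, without overlap. Of cell cycle genes, 23 of the 28 genes tested were DEGs higher in epithelium, among them the mitotic kinases Plk1 (5.26) and Bub1 (4.81). Mki67, a proliferation marker, had 177, 129.9, 181, 225 and 132 normalized counts in epithelium and 2.93, 6.57, 19.7, 5.54 and 8.21 in stroma (log2 fold change 4.51, standard error 0.41, adjusted p = 4.19e-05). Among the replication licensing genes Mcm5 (2.82) was a DEG and Mcm3 (1.27) and Mcm4 (1.38) were not. Repeats with 4 mice moved Bub1 to 4.08 without O3 and to 5.94 without Y1 and Plk1 to 4.53 without O3 and to 6.54 without Y1.

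Detoxification genes divided. In the xenobiotic and glutathione list, 19 of 32 were DEGs in epithelium and 8 in stroma. The aldehyde dehydrogenase Aldh3a1 had 1261, 1530, 1260, 1246 and 1121 normalized counts in epithelium and 1.96, 6.13, 9.57, 1.35 and 1.14 in stroma (log2 fold change 8.75, standard error 0.58, adjusted p = 8.56e-06), and Adh7, the alcohol and retinol dehydrogenase of the upper gut, had 175, 232, 197, 194 and 225 normalized counts in epithelium and 0.267, 0.938, 0.0583, 0.712 and 0.54 in stroma (log2 fold change 8.74, standard error 0.42, adjusted p = 3.98e-06). The glutathione transferases Gsta4 (6.12) and Gsto1 (5.21) and the cystine carrier Slc7a11 (5.23) were higher in epithelium too. On the stromal side were the ethanol-metabolizing Cyp2e1 (-4.78), the peroxidases Gpx3 (-4.02) and Gpx4 (-3.01) and the retinaldehyde dehydrogenase Aldh1a1 (-1.79). Cyp2e1 varied widely in stroma, with 23.2, 14.5, 14.3, 33.4 and 207 normalized counts. Of genes of the unfolded protein response, 11 of 22 were DEGs in epithelium, with modest changes in the chaperones Calr (1.77) and Hspa5 (1.31), and Chac1 (-2.94) and Ddit3 (-1.34) were DEGs in stroma. With upper quartile normalization, which moved log2 fold changes by a median of -0.20, the list had 4 DEGs in stroma. Of channel, pump and mucin genes, 13 of 22 were DEGs in epithelium, led by the glycerol channel Aqp3 (7.21) and the mucin Muc15 (6.93). Muc16 (-5.22) and Muc4 (-3.33) and the pump subunit Atp1b1 (-5.30) were DEGs in stroma. Single mice moved Muc15 to 8.38 without O2, Muc16 to -5.91 without O1 and Muc4 to -4.04 without Y3 and to -2.74 without Y1.

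**Figure D2:**
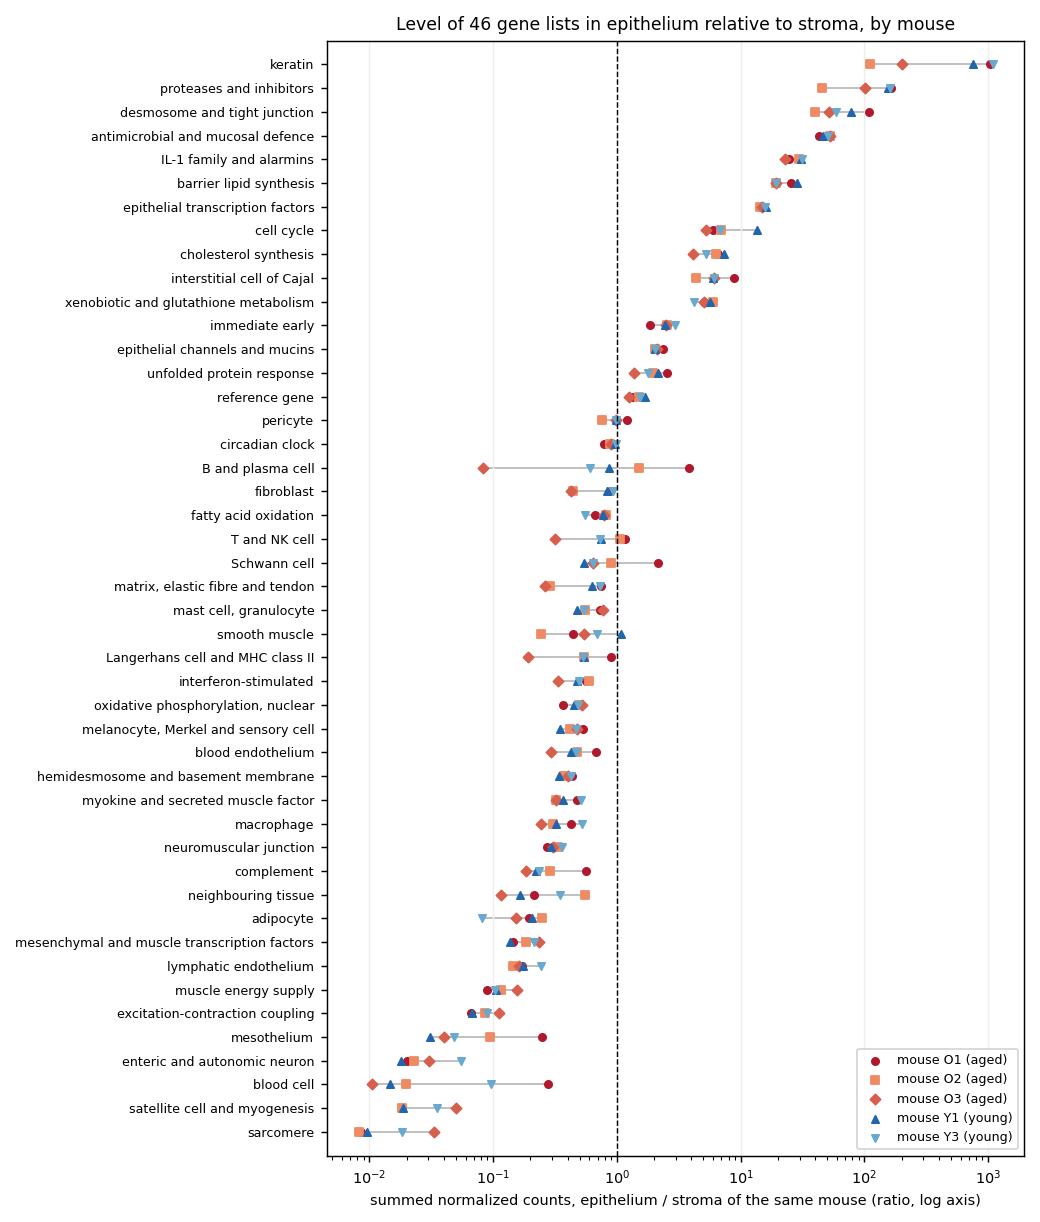
Ratio of summed normalized counts in epithelium to those in stroma of the same mouse, on a log x axis, for 46 gene lists ordered by their median. Points are the 5 mice, grey lines their range and the dashed line equal levels. Lists run from sarcomere genes, at 0.00819 to 0.033, to keratins, at 112 to 1091. The mice fall on both sides of equal levels for the smooth muscle and Schwann cell lists, at 0.242 to 1.08 and 0.543 to 2.14. They also do so for the B and plasma cell (0.083 to 3.81), T and NK cell (0.315 to 1.17) and pericyte (0.764 to 1.205) lists.

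On the stromal side, muscle function reached well past the sarcomere. Of excitation-contraction coupling genes, 27 of the 29 genes tested were DEGs in stroma (median -5.94). Ryr1, the calcium release channel of striated muscle, had 18.8, 9.19, 39.6, 13.3 and 25.8 normalized counts in epithelium and 2916, 2179, 1752, 2719 and 2018 in stroma (log2 fold change -6.93, standard error 0.47, adjusted p = 9.19e-06). The highest epithelial values were those of O3 and Y3, as for the sarcomere genes. The chloride channel Clcn1 (-5.18) and the sodium channel Scn4a (-5.94) were DEGs in stroma too. Of neuromuscular junction genes, 16 of the 18 genes tested were DEGs in stroma, among them the receptor subunits Chrna1 (-5.88) and Chrnd (-5.36), the scaffold Rapsn (-5.54) and the kinase Musk (-5.43). Leaving out a mouse took Chrnd to -6.09 without Y3.

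Stroma also had myogenic regulators at low levels. Pax7, the marker of satellite cells, had 0.404, 0.0467, 0.317, 0.0538 and 0.408 normalized counts in epithelium and 6.58, 1.19, 4.03, 2.45 and 1.98 in stroma (log2 fold change -3.81, standard error 0.71, adjusted p = 0.00205). The factors Myf6 (-6.59), Myod1 (-5.88) and Myog (-5.84) and embryonic myosin Myh3 (-6.13) were DEGs in stroma, and Myod1 had 13.8, 19.5, 17, 21.1 and 14.5 normalized counts there. Of the 19 genes listed, 9 of 11 tested were DEGs, and Myf5, Pax3 and Calcr were among those too low to test. The secreted brake on muscle growth, Mstn (-6.70), was a DEG in stroma with 0.179, 0, 0.127, 0.108 and 0.561 normalized counts in epithelium and 18.1, 21.8, 12.4, 15.3 and 23.4 in stroma. The omission of 1 mouse moved Mstn to -7.37 without Y3 and Myod1 to -6.60 without Y3.

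Energy genes leaned to stroma but by different amounts. Of genes of muscle energy supply, 19 of the 24 genes tested were DEGs in stroma, among them myoglobin Mb (-7.13) and the glycolytic Gapdh (-2.80). Of nuclear genes of oxidative phosphorylation, 34 of the 36 genes tested were DEGs in stroma, with a narrow range of log2 fold changes from -1.94 to -0.34 (median -1.06). Sdhb, a subunit of complex II, had 18.4, 24.8, 23.4, 25.5 and 21.9 normalized counts in epithelium and 73.9, 81.2, 92.1, 82.6 and 78.1 in stroma, with no overlap. Fatty acid oxidation was mixed, with 15 DEGs in stroma and 5 in epithelium of 28. The muscle uncoupler Ucp3 (-4.93), Acacb (-5.52) and the fatty acid carrier Cd36 (-2.49) were higher in stroma, whereas the nuclear receptor Ppara (1.22) and Acaa2 (0.96), Hadh (0.72) and Hadha (0.71) were higher in epithelium.

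Most genes of fat and of the serosa were higher in stroma. Of adipocyte genes, 16 of the 21 genes tested were DEGs in stroma, and the list's summed level in epithelium was 8.13% to 24.7% of that in stroma. Adipoq, the fat hormone adiponectin, had 0.135, 0, 0, 0.108 and 0.051 normalized counts in epithelium and 27.6, 22.2, 24.9, 15.6 and 116 in stroma (log2 fold change -9.07, standard error 0.55, adjusted p = 5.89e-06), and the droplet coat Plin1 (-8.95) and the hormones Retn (-7.05) and Lep (-6.09) lay on the same side. Stromal Adipoq was highest in Y3, as was Cidec. Ucp1, the uncoupler of brown fat, had 0.314, 0.187, 0.254, 0.323 and 0.255 normalized counts in epithelium and 1.07, 5.69, 16.8, 2.69 and 3.54 in stroma (log2 fold change -3.88, standard error 0.71, adjusted p = 0.00194). Dgat2 (2.70) and Cebpa (1.91), which keratinocytes also express, were DEGs in epithelium. Of mesothelial genes, 8 of the 9 genes tested were DEGs in stroma, Lrrn4 (-6.58), Upk3b (-6.13) and Msln (-4.60) among them. Upk3b had 0.224, 0.14, 0.254, 0.323 and 0.51 normalized counts in epithelium and 3.82, 8.44, 32.9, 39.5 and 40.6 in stroma. The simple keratins of that list, Krt8 (-5.77) and Krt19 (-4.29), were higher in stroma, unlike every keratin of the squamous list. Repeats with 4 mice moved Adipoq to -9.79 without O1 and to -8.44 without Y3, Krt8 to -7.50 without Y3 and Lep to -7.05 without Y1.

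Of neuronal genes, 8 of the 10 genes tested were DEGs in stroma, and 19 of 29 were too low to test. The largest was Nos1 (-6.79), the nitric oxide synthase of inhibitory neurons and of striated muscle. Narrower markers were low: Chat, of cholinergic neurons, had 0.404, 0, 0, 0.215 and 0.459 normalized counts in epithelium and 4.89, 0.813, 2.04, 2.93 and 2.82 in stroma (log2 fold change -4.04, standard error 0.91, adjusted p = 0.00552), and Ret, the receptor of enteric neurons, had 7.64, 5.88, 14.6, 6.81 and 6.24 in stroma. Vip and Elavl4 were among the genes too low to test. Schwann cell genes were 10 of 17 DEGs in stroma and 3 in epithelium. The lineage factor Sox10 (-4.16) was higher in stroma, while Erbb3 (2.90), Fxyd3 (5.26) and L1cam (1.29) were higher in epithelium and made the summed level of the list 54.4% to 214% of that in stroma. Of the 7 genes listed for interstitial cells of Cajal, the pacemaker cells of the gut, 5 were DEGs in stroma, with Kit at 1.66, 0.98, 1.21, 0.162 and 1.48 normalized counts in epithelium and 0.977, 10.5, 3.85, 3.64 and 7.14 in stroma (log2 fold change -2.21, standard error 0.77, adjusted p = 0.0389). Their count was 2 without Y1 and 3 without O2 or O3. The sum of that list was higher in epithelium through Gja1 (5.57), a connexin of keratinocytes as well. Single mice moved Chat to -4.66 without Y3, Kit to -2.82 without O1 and Sox10 to -4.89 without O1. Kit was not a DEG without O2, O3, Y1 or Y3.

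Genes of fibroblasts, vessels and smooth muscle were measured in both layers. Of fibroblast genes, 14 of the 24 genes tested were DEGs in stroma, with a median of -0.83, and their summed level in epithelium was 42.6% to 94% of that in stroma. Col1a1, the main fibrillar collagen, had 117, 117, 139.7, 219.9 and 173 normalized counts in epithelium and 86.5, 156, 231, 197 and 174 in stroma (log2 fold change -0.11, standard error 0.19, adjusted p = 0.654), and the groups overlapped. Its log2 fold change has a 95% interval from -0.55 to 0.33. The genes that were DEGs include Pi16 (-1.71), Dpt (-1.63) and Clec3b (-1.51), known from adventitial fibroblasts, and Mfap5 (-2.11) and Igf1 (-1.82). Among matrix genes 17 of the 25 genes tested were DEGs in stroma, with the tendon factor Scx (-4.77) and elastin Eln (-2.25). Tnc (1.51), Col12a1 (1.06) and Postn (1.04), glycoproteins and a collagen found beneath epithelia, were DEGs in epithelium. Col12a1 was not a DEG without O1, O2, Y1 or Y3 and Postn was not a DEG without O1, Y1 or Y3.

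Smooth muscle genes had 6 DEGs in stroma of 15 tested, against 24% of all genes. Myh11, the smooth muscle myosin, had 596, 489.6, 463, 546 and 506 normalized counts in epithelium and 828, 1659, 691, 213 and 503 in stroma (log2 fold change -0.30, standard error 0.40, adjusted p = 0.555) and overlapped. The largest differences were Chrm2 (-6.47) and Casq2 (-4.31), which striated muscle or other cells also express. The other DEGs in stroma were Synpo2 (-2.855), Lmod1 (-2.39), Myocd (-1.17) and Smtn (-0.87). Ptger3 (1.10) was a DEG in epithelium, and 8 genes of the list were not called. Of pericyte genes, 7 of 11 were DEGs in stroma, and their count fell to 4 without O2 or without Y1. Ndufa4l2 (5.28) and Notch3 (3.29), DEGs in epithelium, kept the sum of that list at 76.4% to 120.5% of stroma. Of blood endothelial genes, 11 of the 21 genes tested were DEGs in stroma. Cdh5, the endothelial cadherin, had 4.85, 5.37, 7.16, 4.68 and 8.15 normalized counts in epithelium and 6.22, 24, 29.7, 13.6 and 31.2 in stroma (log2 fold change -1.63, standard error 0.30, adjusted p = 0.00202). Lymphatic genes differed more, with 9 of the 11 genes tested called in stroma: Prox1, the master regulator of lymphatic fate, had 0.135, 0.187, 0.127, 0.108 and 0.51 normalized counts in epithelium and 4.62, 5.19, 0.875, 6.73 and 6.3 in stroma (log2 fold change -4.42, standard error 0.65, adjusted p = 0.000584), and Ccl21a (-5.89), Mmrn1 (-5.25) and Flt4 (-4.13) were of like size. The list also holds Tbx1, which is a factor of head and pharyngeal muscle too. In summed level, epithelium had 14.6% to 24.2% of stroma for the lymphatic list and 29.2% to 67.8% for the blood endothelial list. Leaving out a mouse took Flt4 to -4.73 without Y3.

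Macrophage genes were measured in both layers and immunoglobulin genes almost entirely in stroma. Of macrophage genes, 16 of the 20 genes tested were DEGs in stroma. Csf1r, the receptor that keeps macrophages alive, had 10.7, 11.1, 11.3, 6.68 and 13.4 normalized counts in epithelium and 23.4, 33.1, 51.2, 24.1 and 28.2 in stroma (log2 fold change -1.56, standard error 0.22, adjusted p = 0.000409). Of MHC class II and dendritic genes, 10 of the 13 genes tested were DEGs in stroma, and 6 without Y1. Cd74, the class II chaperone, had 37.9, 41.8, 40.5, 20.7 and 42 normalized counts in epithelium and 61.3, 95, 398, 73.2 and 117 in stroma (log2 fold change -1.67, standard error 0.34, adjusted p = 0.00386). The Langerhans cell marker Cd207 was too low to test, at 0.359, 0.933, 1.01, 0.538 and 0.714 normalized counts in epithelium. Of T and NK cell genes, 2 of the 7 genes tested were DEGs in stroma and 1, Cd5 (4.62), in epithelium, the stromal count being 5 without O1 and 1 without O2, Y1 or Y3. Of all genes, 24% were DEGs in stroma and 27.4% in epithelium, so these counts are near or under the shares of all genes. In the same list Cd3e, Cd4 and Cd8a were too low to test in either layer, and Trdc, of gamma-delta T cells, had 0.0898, 0.28, 0.0634, 0.0538 and 0.051 normalized counts in epithelium and 2.58, 3.88, 12.8, 1.58 and 2.04 in stroma (log2 fold change -5.05, standard error 0.72, adjusted p = 0.000479). Immunoglobulin genes were DEGs in stroma with wide spread: Ighm (-6.97) had 33.1, 91.3, 1796, 152 and 210.2 and Jchain 3.11, 6.07, 129.6, 15.4 and 24.1 normalized counts there, highest in O3. Of B and plasma cell genes, 7 of the 11 genes tested were DEGs in stroma, and 12 of the list's genes without O1. Sdc1 (5.71) and Blnk (1.96) of that list, also made by keratinocytes or other cells, were DEGs in epithelium. With them included, the summed level of the list in epithelium was 8.3% to 381% of that in stroma. Red cell genes differed as well, with Hbb-bs (-5.51) at 14, 0.467, 0.444, 0.431 and 4.13 normalized counts in epithelium and 54.7, 65.1, 156, 87.6 and 59.1 in stroma, and stroma was higher in 5 of 5 mice. The omission of 1 mouse moved Cd5 to 3.99 without O3 and to 5.35 without O2, Hbb-bs to -6.47 without O1 and to -4.76 without O3 and Ighm to -7.67 without O1.

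Complement and interferon-stimulated genes were stromal or shared. Of complement genes, 12 of the 18 genes tested were DEGs in stroma. C3, the central component, had 189, 144, 161, 123 and 198 normalized counts in epithelium and 392, 788, 1166, 847 and 1132 in stroma (log2 fold change -2.35, standard error 0.29, adjusted p = 0.000224), and C4b (-2.30) and Serping1 (-1.39) lay on the same side. Of interferon-stimulated genes, 10 of the 21 genes tested were DEGs in stroma, led by Ifit3b (-4.38), Ifit3 (-3.59) and Rsad2 (-3.49), and the count was 6 without O2, Y1 or Y3. Of genes of neighbouring tissues (thyroid, cartilage, gland, airway and stomach), 3 of the 7 genes tested were DEGs in stroma, against 24% of all genes. That count was 1 without O2, Y1 or Y3. Amy1, the amylase of salivary gland and liver, had 0.584, 0.0467, 0.19, 0.108 and 0.204 normalized counts in epithelium and 23.6, 13.8, 9.1, 7.04 and 18.6 in stroma. Thyroglobulin Tg had 1.12, 0.513, 0.19, 0.162 and 1.38 normalized counts in epithelium and 2.49, 0.5, 0.0583, 1.9 and 4.62 in stroma and did not pass the test (adjusted p = 0.31). Repeats with 4 mice moved Rsad2 to -4.30 without O1 and to -2.75 without O3. Rsad2 was not a DEG without O2, O3 or Y1.

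Ligand and receptor genes were set side by side. Of 108 pairs listed, both members were tested in 84, and in 5 of these the ligand was a DEG in stroma and its receptor a DEG in epithelium, where 24% of all genes were called in stroma and 27.4% in epithelium. These are descriptions of single pairs. Fgf10 had 0.987, 0.327, 0.824, 0.323 and 0.867 normalized counts in epithelium and 21.5, 10.4, 5.43, 18.3 and 11.9 in stroma (log2 fold change -4.29, standard error 0.49, adjusted p = 0.000129), and Fgf7 had 3.41, 3.17, 2.66, 1.67 and 4.28 normalized counts in epithelium and 21.1, 8.94, 3.91, 6.65 and 7.79 in stroma (log2 fold change -1.50, standard error 0.38, adjusted p = 0.0105). Their receptor Fgfr2 had 105, 114, 94.3, 102 and 107 normalized counts in epithelium and 18.5, 20.4, 9.04, 5.7 and 6.06 in stroma (log2 fold change 3.32, standard error 0.31, adjusted p = 4.20e-05), without overlap. A further ligand of that receptor, Fgf22 (4.27), was itself a DEG in epithelium. The other pairs of this kind were Fgf18 (-2.90) with Fgfr3 (4.85), the activin subunit Inhba (-1.95) with Acvr2a (1.31) and the guidance cue Slit2 (-2.39) with Robo1 (2.88). Single mice moved Fgf22 to 3.50 without O3 and to 5.36 without O2 and Slit2 to -3.03 without O1. Inhba was not a DEG without O2 and Slit2 was not a DEG without O2, O3, Y1 or Y3.

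The reverse arrangement, a ligand gene in epithelium and its receptor in stroma, was found for 7 pairs. Of all genes, 27.4% were called in epithelium and 24% in stroma, and the count was not tested against these shares. These too are descriptions of single pairs. The alarmins Il33 (2.94) and Il18 (6.05) paired with Il1rl1 (-2.58) and Il18r1 (-2.97), the neurotrophins Bdnf (3.33) and Ntf3 (3.72) with Ntrk2 (-0.78) and Ntrk3 (-2.09), Bmp7 (4.29) with Bmpr1b (-1.15), Wnt16 (4.46) with Fzd4 (-2.75), and agrin Agrn (1.67) with Lrp4 (-1.69). Il33 had 50.2, 51.8, 44.4, 51.8 and 60.5 normalized counts in epithelium and 5.69, 5.75, 9.1, 6.81 and 6.6 in stroma (log2 fold change 2.94, standard error 0.20, adjusted p = 8.27e-06). Several receptors were low, Il1rl1 having 4.8, 2.5, 3.97, 2.45 and 3.36 and Il18r1 3.11, 4, 3.21, 1.11 and 2.16 normalized counts in stroma. Leaving out a mouse took Bdnf to 4.03 without O2, Ntf3 to 3.05 without O3 and to 4.99 without Y3 and Wnt16 to 3.67 without O3 and to 5.80 without Y1. Bmpr1b was not a DEG without O1 or O2, Il18r1 was not a DEG without Y1, Ntf3 was not a DEG without O1, O2, O3 or Y1 and Wnt16 was not a DEG without O1 or O2.

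In 17 pairs both members were DEGs in epithelium and in 14 both in stroma, where 27.4% and 24% of all genes were called. Epithelial pairs included Wnt7b (6.14) with Fzd10 (4.11), Jag1 (2.65) with Notch1 (2.04) and Notch3, and the growth factors Ereg (6.76), Tgfa (5.06) and Hbegf (3.31) with Egfr (1.55). Wnt4 had 220.5, 239.5, 220, 251 and 195 normalized counts in epithelium and 10.2, 20.3, 7.99, 18.4 and 14.2 in stroma. Stromal pairs included Vegfa (-1.39) with Kdr (-2.80), Vegfd (-2.40) with Flt4, Cxcl12 (-1.73) with Ackr3 (-1.36), Lep with Lepr (-1.09), and Mstn with Acvr2b (-3.07). These are levels of RNA, and whether the proteins meet was not measured. The omission of 1 mouse moved Ereg to 8.58 without O2.

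**Figure D3:**
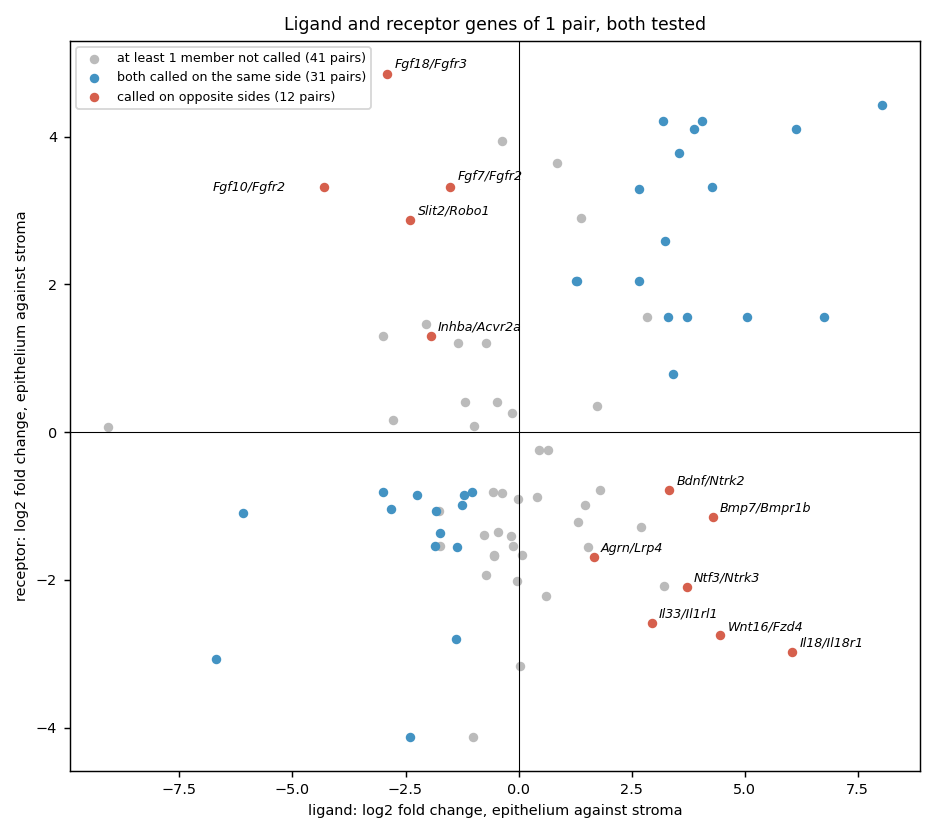
Log2 fold change of epithelium against stroma of the ligand gene (x axis) and of its receptor gene (y axis) for the 84 pairs with both members tested. Red points are the 12 pairs with members called on opposite sides, blue points the 31 pairs called on the same side and grey points the other 41; Fgf10 with Fgfr2 and Fgf18 with Fgfr3 stand at the upper left.

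In many of the pairs of related genes listed, the layers were represented by different members. Of 50 such pairs, 29 had the general or epithelial member as a DEG in epithelium and the muscle or stromal member as a DEG in stroma. Of all genes, 27.4% were DEGs in epithelium and 24% in stroma. The pairs were set up as a general or epithelial gene beside a muscle or stromal one, with earlier results known. Their count thus reflects that choice and was not tested, and the choice bears on the shares below as well. Shares below are of the second gene in the pair's summed normalized counts per kb of exon. For cytochrome c oxidase, Cox6a2 made up 1.64% in epithelium (range 0.659% to 5.22%) and 86.9% in stroma (81.1% to 91.5%) of the sum with Cox6a1. Cox6a1 had 38.8, 48.5, 47.5, 50.3 and 42.4 normalized counts in epithelium and 19.8, 23.3, 24.3, 15.4 and 20.9 in stroma, and Cox6a2 had 0.628, 0.42, 2.54, 0.323 and 1.12 normalized counts in epithelium and 175, 146, 101, 160.3 and 134 in stroma. Cox6a1 was thus measured in both layers and Cox6a2 almost entirely in stroma.

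Translation genes had the same arrangement. The elongation factor Eef1a2 made up 0.555% in epithelium (range 0.177% to 2.08%) and 62.4% in stroma (56.8% to 67.3%) of its pair with Eef1a1, which was itself a DEG in epithelium (1.31). The ribosomal protein Rpl3l made up 1.79% in epithelium (range 0.565% to 5.66%) and 89.2% in stroma (79.3% to 90.9%) of its pair with Rpl3. Both Eef1a2 and Rpl3l are known from adult striated muscle. In energy metabolism, mitochondrial creatine kinase Ckmt2 made up 0.555% in epithelium (range 0.541% to 3.69%) and 99.5% in stroma (98.5% to 99.9%) of its pair with Ckmt1 (6.72 for Ckmt1 and -6.88 for Ckmt2). Ckmt1 had 138, 158, 158, 162 and 126 normalized counts in epithelium and 0.178, 4.31, 0.7, 3.25 and 0.72 in stroma.

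Transporters and antioxidant enzymes followed the same pattern. The insulin-responsive glucose transporter Slc2a4 made up 6.62% in epithelium (range 5.11% to 11.1%) and 91.8% in stroma (77.7% to 92.8%) of its pair with Slc2a1. Hexokinase Hk2 made up 34.1% in epithelium (range 29.8% to 36%) and 92.9% in stroma (88.4% to 97.6%) of that with Hk1. The glutathione peroxidase Gpx3 made up 5.89% in epithelium (range 5.07% to 6.63%) and 99.4% in stroma (97% to 100%) of the pair with Gpx2, and the water channel Aqp1 4% in epithelium (range 3.73% to 4.36%) and 95.1% in stroma (92.4% to 100%) of the pair with Aqp3. Fabp5 (7.05) and Fabp3 (-4.86), carriers of fatty acids, were on opposite sides. Not every pair behaved so: Dsg3 (7.92) and Dsg2 (1.55) were both DEGs in epithelium, Pygl (-1.32) and Pygm (-6.00) both in stroma, and Myh11 was not a DEG beside Myh9 (1.13). Related genes share sequence, so part of their reads may have been divided by the counting. Repeats with 4 mice moved Dsg3 to 8.81 without O2. Dsg2 was not a DEG without O2, Y1 or Y3 and Pygl was not a DEG without O3, Y1 or Y3.

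**Figure D4:**
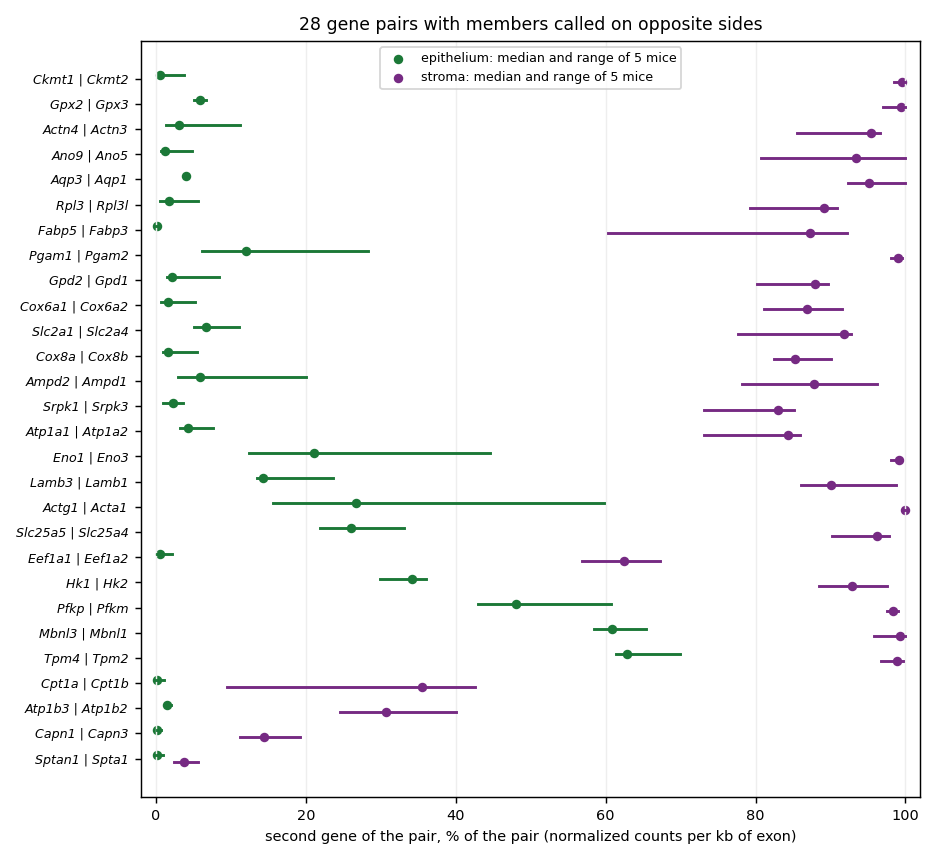
Share of the second gene in 28 of the 29 pairs of related genes whose members were called on opposite sides, in percent of the pair's normalized counts per kb of exon (x axis), as median (point) and range (line) of 5 mice in epithelium (green) and stroma (purple). The pairs were selected by these calls, which favour a higher share of the second gene in stroma. In each pair the stromal range lies above the epithelial range.

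Clock, immediate early and reference genes also differed. Of circadian genes, 10 of 18 were DEGs in stroma, with Dbp (-2.86), Nr1d2 (-2.05) and Tef (-1.85), and 3 in epithelium, Bhlhe40 (1.29), Clock (1.19) and Rora (0.91). Dbp had 1.53, 3.92, 0.697, 0.431 and 1.02 normalized counts in epithelium and 17.9, 18.5, 5.66, 2.77 and 7.32 in stroma. Of immediate early genes, 11 of 21 were DEGs in epithelium, with Egr3 (4.09), Ier2 (3.02) and Fosl2 (2.55), and Nr4a1 (-5.04) and Klf2 (-2.28) in stroma. Of 20 genes often used as references, 11 were DEGs in epithelium and 4 in stroma, Gapdh among the latter with 14.1, 18, 20.1, 16.2 and 16.2 normalized counts in epithelium and 114, 115, 139, 124 and 97 in stroma. Actb had 1445, 1817, 1624, 1656 and 1518 normalized counts in epithelium and 404, 842, 969.7, 312 and 401 in stroma and was higher in epithelium in 5 of 5 mice. Eef2, a translation elongation factor, did not pass the test (0.15, 95% interval -0.29 to 0.60). Rora was not a DEG without Y3.

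Last, it was asked whether the layers differed in another way in aged than in young mice, and which genes followed the mouse in both layers. For the interaction of age and layer, 0 of 16713 genes (0%) were DEGs with edgeR, 411 had an unadjusted p under 0.05, and DESeq2 called 11. The smallest p-values belonged to Mpzl2, Klk11 and Top2a (adjusted p = 1 for each). Klk11 had 76.8, 77.9, 73.9, 93.4 and 70 normalized counts in epithelium and 0, 0.0625, 0, 1.74 and 0.779 in stroma (log2 fold change between layers 7.59), and its stromal values in aged mice rested on 0 or 1 count. Single mice moved Klk11 to 8.54 without Y1.

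Between mice, 1 gene was a DEG (0.00598% of those tested), and 161 had an unadjusted p under 0.05. Ddx3y, a helicase gene of the Y chromosome, had 26.4, 23.2, 0, 25.6 and 0 normalized counts in epithelium and 26.8, 32.3, 0, 21.2 and 0 in stroma (adjusted p = 0.0451), so that O3 and Y3 were at 0 in both layers. Xist, the RNA that silences an X chromosome, had 0.987, 0.14, 215, 0 and 251 normalized counts in epithelium and 0.267, 0.125, 144, 3.64 and 234 in stroma (adjusted p = 0.246) and was high in the same mice, 1 aged and 1 young. Complement C7 had 35, 33.9, 9, 17.1 and 7.59 normalized counts in epithelium and 41.4, 72.7, 9.92, 30.5 and 10 in stroma (adjusted p = 0.246) and was lowest in both layers of O3 and Y3. The heat shock gene Hspa1b had 1225, 626, 208, 1116 and 168 normalized counts in epithelium and 169, 104, 73.3, 160.1 and 23.6 in stroma (adjusted p = 0.548), again lower in O3 and Y3 in both layers, and Hspa1a followed it. Not all genes with a smaller p than Hspa1b set O3 and Y3 apart. Gm47283 had 52, 25.4, 42.7, 140.3 and 61.7 normalized counts in epithelium and 17.5, 14.2, 26.9, 83.35 and 47.7 in stroma (adjusted p = 0.285). It was highest in Y1 in both layers, as was Gm6788 (adjusted p = 0.479). Jchain was highest in O3 in both layers (adjusted p = 0.246). Apart from Ddx3y none of the genes named here passed the test.

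**Figure D5:**
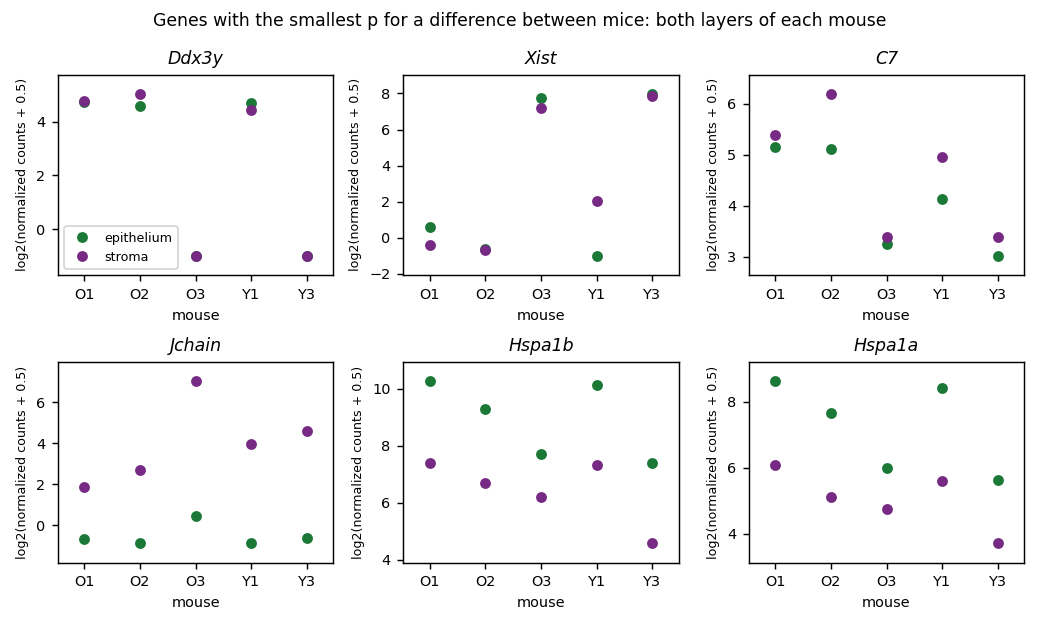
Log2(normalized counts + 0.5) of 6 genes among those with the smallest p for a difference between mice, in epithelium (green) and stroma (purple) of each mouse. Ddx3y is at 0 counts in both layers of O3 and Y3, Xist is high there, and C7 is lowest there.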

How the data were processed

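Epithelium and stroma of the mouse esophagus had been sequenced with Illumina after oligo-dT enrichment. The authors aligned reads to GRCm38.p6 with Rsubread, assigned them to genes with featureCounts and deposited raw counts per gene symbol for 55291 genes. Strand and multi-mapping settings are not given in the sources used here. Reads from overlapping, antisense or near-identical genes may thus be shared. Replicates are separate mice by the labels.

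Here the counts of 10 samples were filtered (filterByExpr, minimum count 10), TMM-normalized and tested with edgeR 4.0.16 (R 4.3.3, quasi-likelihood, mouse as a block, Benjamini-Hochberg, 0.05 over all 16713 genes). The block was used because both layers come from the same animal by the labels. Correlations of same-mouse deviations were 0.05 to 0.135. The interaction of age and layer, and the mouse terms, were tested in the same way. Shares of counts were compared with an exact sign-flip permutation test over 5 mice. Alternatives were DESeq2 1.42.0, other filters and scalings, no block, a fold of 2 and each mouse left out. The scripts were tested on simulated data. Normalized counts use the TMM-adjusted library size.

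Named genes are the 10 largest differences on each side (mean log2 CPM of at least 5, no overlap, outside the keratin and sarcomere lists), up to 4 of the largest called members on each side of each of 46 gene lists with the members needed to describe the list, opposed ligand-receptor pairs, pairs of related genes, and the smallest p for interaction and mouse. Other genes shown were picked after their values were seen. Members and lists were chosen with earlier results of these data known. Coordinates are from GENCODE M21 (GRCm38), which holds 53292 of the symbols, and exon lengths from the same. Promoters are RefSeq sequences on GRCm38.p6. A few genes are not reported here. Counting error alone limits values near 3 counts.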

Additional observations from a re-analysis of the deposited data

Results flagged for a closer look

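In 9 of 140 groups of 5 samples examined, 1 sample lay far from the other 4 by Dixon's test on the log2 scale, with about 7 to be met by chance at 1 in 20. In epithelium, O1 had a summed level of 838 normalized counts for IL-1 family genes (956 to 1007 in the others) and 259 for Schwann cell genes (211 to 222). Epithelium of O2 had 4863 for xenobiotic and glutathione genes (3879 to 4067). Epithelium of Y1 had 107 for Langerhans cell and MHC class II genes (149 to 157) and 678 for the list of interstitial cells of Cajal (763 to 786). Most of the latter was Gja1, a connexin of keratinocytes as well, at 638 in Y1 (704 to 730). Epithelium of Y3 had 502 for the list of secreted muscle factors (336 to 368). In that list Dcn was at 223 in Y3 (97.6 to 154.5) and Sparc at 109 (64.8 to 97.2), while Mstn was at 0.561. In stroma, O3 had 41.8 for IL-1 family genes (31.9 to 33.8), and O2 had 1.56 normalized counts of Lce3a (0 to 0.24). Cidec in stroma of Y3 was at 191 normalized counts against 25 to 43.8, and the same sample was the highest for Adipoq and Cyp2e1.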

How the results depend on the processing

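Direction was stable where a gene was called: under the 13 alternatives none of the 258 named DEGs changed direction, and 219 kept their call under every alternative that tested them. The 8590 DEGs between layers became 9400 without mouse as a block, 9869 with DESeq2, 8485 with upper quartile normalization, 8167 with total counts, 6692 of 11037 genes where each sample had to hold 10 counts, 4504 when tested against a fold change of 2, and 6893 to 8722 with 1 mouse left out, fewest without Y1. DEGs higher in epithelium were 53.4% of all DEGs, but 68% without a filter and 45.4% with upper quartile normalization. The pairing comes from the labels, and the correlations of same-mouse deviations were 0.05 to 0.135. For age by layer, edgeR gave 0 DEGs under no block, upper quartile normalization, the stricter filter and each mouse left out (131 to 867 at an unadjusted p under 0.05), whereas DESeq2 gave 11 and no filter 77. For mice, DESeq2 gave 26, no filter 232, the stricter filter 0 and leaving out a mouse 0 to 1. The mitochondrial share differed by -18.2 percentage points, by -21.6 without ribosomal RNA and repeated loci in the denominator, and by -16.5 to -19.7 with 1 mouse left out. Genes near no change turned sign: Col1a1 was at 0.28 and Myh11 at 0.089 with no filter, Eef2 at -0.047 and Fa2h at -0.14 with upper quartile normalization, and Fa2h at -0.49 without the block. With 1 mouse left out, Col1a1 ran from -0.23 to 0.028, Myh11 from -0.72 to 0.086 and Fa2h from -0.65 to 0.74. The cause of these changes was not tested. List counts moved by over 1.5 times for 30 of the 92 counts (46 lists, 2 sides) with the stricter filter, which tests fewer genes, 25 against a fold of 2, 14 with no filter and 0 to 9 under each other alternative. With 3 counts at 0.135 to 0.267 normalized counts, differences of genes at that level cannot be sized.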

Other observations

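Some genes known from blood cells were higher in epithelium, where no other tested gene of their lists was a DEG. Cxcr2, a chemokine receptor of neutrophils, had 14.2, 12.4, 11.1, 15.6 and 12.2 normalized counts in epithelium and 3.55, 0, 0, 0.712 and 0.36 in stroma (log2 fold change 4.97, standard error 0.96, adjusted p = 0.0028). Of the other mast cell and granulocyte genes tested, Il1rl1 (-2.58), Mcpt4 (-2.40), Cma1 (-2.32) and Kit (-2.21) were DEGs in stroma, and Cpa3, Tpsb2, Csf3r and Mpo were not DEGs. The neutrophil gene Ly6g was too low to test, with 0.224, 0.0467, 0, 0.0538 and 0.153 normalized counts in epithelium. Cd5, a surface receptor of T cells and some B cells, had 12.3, 12.8, 15.7, 14.7 and 13.7 normalized counts in epithelium and 0, 1.94, 0, 0.792 and 1.14 in stroma (log2 fold change 4.62, standard error 0.88, adjusted p = 0.00261), while the T cell receptor genes Trac and Trbc2 were under 1 normalized count in every epithelium. The groups did not overlap for either gene. Both genes were named after their values were seen. Leaving out a mouse took Cd5 to 3.99 without O3 and to 5.35 without O2, Cxcr2 to 4.35 without O3 and to 5.93 without O1 and Kit to -2.82 without O1. Kit was not a DEG without O2, O3, Y1 or Y3.

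Of 14 genes tested in the list of secreted muscle factors, 9 were DEGs in stroma. Among them were the vascular factor Vegfb (-2.77) and the lipase inhibitor Angptl4 (-2.44), next to Mstn. The 9 include Mylk4 (-6.16), a kinase gene rather than a secreted factor, and the matrix genes Sparc (-1.16) and Dcn (-0.81). Metrnl, a hormone of muscle and barrier tissues, had 32, 39.4, 35.9, 44.7 and 34.5 normalized counts in epithelium and 3.29, 13.4, 9.1, 5.38 and 7.86 in stroma (log2 fold change 2.38, standard error 0.28, adjusted p = 0.000174) and was the 1 member called in epithelium. In the list of melanocyte, Merkel and sensory cells, 3 of 6 genes tested were DEGs in stroma, against 24% of all genes. Among them was the mechanosensory channel Piezo2 (-1.17), at 10.9, 7.09, 7.1, 8.99 and 9.73 normalized counts in epithelium and 19.9, 15.9, 21.1, 19.3 and 21.4 in stroma. Mir205hg, the host transcript of a microRNA of squamous epithelium, had 21.1, 12.2, 13.3, 14.2 and 13.2 normalized counts in epithelium and 0, 0, 0, 0.475 and 0.18 in stroma (log2 fold change 6.97), and the mature microRNA was not measured. The omission of 1 mouse moved Mir205hg to 8.11 without Y1.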
